A study of Glycine max with 36 samples.

Results

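The 4 soybean genes described here are the LHY/CCA1-like (LCL) copies GLYMA16G01980, GLYMA07G05410, GLYMA19G45030 and GLYMA03G42260. They were taken by identifier from a table of 47011 gene identifiers, and all 4 were present. LHY and CCA1 are MYB-type transcription factors of the plant circadian clock, best known from Arabidopsis, where they accumulate around dawn. There they repress evening-phased genes, among them the pseudo-response regulator TOC1, GIGANTEA and genes of the evening complex, by binding a short promoter motif called the evening element. Their own transcription is in turn held down during the day by other pseudo-response regulators, so that transcript level falls during the day and rises again before the next dawn. Soybean kept several copies after duplications of its genome, and the RefSeq gene table for assembly Glycine_max_v4.0 lists 4 genes with LHY or LCL names, on chromosomes 3, 7, 16 and 19. Their synonyms there are GmLHY2b, GmLHY1b, GmLHY1a and GmLHY2a, in that order. None of the identifiers of the expression table (0 of 47011) could be tied to that table, so the copies are called by identifier and the other clock genes could not be resolved by name.

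Transcripts were measured by RNA-seq in unifoliolate leaves, the first pair of true leaves, of the cultivar Williams82. Seedlings had 9 days at 28 °C with 16 h of light and 8 h of dark, were then placed in constant conditions, and were 11 days old when sampling began. Leaves were collected every 4 h from ZT0 to ZT44 (zeitgeber time, h), which gives 12 time points, each with 3 libraries made from leaves of 3 pooled seedlings. Each library is a different pool, so p-values between time points measure the spread between pools. For fitted curves and the day term, the spread also takes in what the fit leaves unexplained. For the level between copies, it also takes in the change of their difference over the day. Along the course the plants grew older as their stay in constant conditions grew longer, and these cannot be told apart. Levels are FPKM, fragments of RNA scaled to gene length and library size, as deposited by the authors. FPKM corrects for gene length, so that copies can be set side by side. The sources used here do not say how reads matching more than 1 copy were assigned, and the levels of near-identical copies are uncertain to that extent.

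Summed FPKM ran from 651475 to 749531 per library, and the spacing of very low values gave relative depths between 0.795 and 1.14 times the median library. Absolute depth is unknown, so no counting interval is given. Pearson's r between replicates, across genes, was at least 0.98 in 30 of 36 pairs. Both replicates 2 and 3 of ZT44, and replicate 2 of ZT40, lay away from the other 33 libraries on the fourth principal component. These 3 libraries scored 34.0 to 39.3. The lowest scores were -24.8 and -21.6 for ZT40 replicates 1 and 3 and -17.4 for ZT44 replicate 1. All other time points lay between -13.2 and 17.5. The component thus sets libraries of ZT40 and ZT44 against each other and does not show which side is unusual. Tests and timings of the second day that change without the 3 libraries are also given that way. Such fits keep only the low-scoring libraries of ZT40 and ZT44. The leaf identity of the tissue could not be checked against marker genes, because identifiers could not be tied to names.

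All 4 copies were high around subjective dawn and low at ZT12, which is 4 h before the end of the former light period. Each went from high to low on both days. Sampling ended at ZT44, with the copies back at 37.3% to 45.3% of the ZT24 mean, so the second return to dawn was not seen. GLYMA16G01980 stood at 462, 450 and 476 FPKM in the 3 libraries of ZT0 and at 12.2, 12.0 and 14.2 FPKM at ZT12. One cycle later it was at 415, 446 and 448 FPKM at ZT24 and at 41.6, 41.7 and 47.0 FPKM at ZT36. Both dawns were thus far above both minima, and the ZT36 libraries all lay above the ZT12 libraries.

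GLYMA07G05410 had the same shape at a lower level, with 191, 183 and 199 FPKM at ZT0 and 5.84, 6.17 and 7.99 FPKM at ZT12. At ZT24 it was at 181, 190 and 194 FPKM and at ZT36 at 14.8, 17.3 and 17.9 FPKM. The dawn libraries of the 2 days overlapped and those of ZT12 and ZT36 did not.

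GLYMA19G45030 had the lowest mean of the 4 copies at each of the 12 time points, with 133, 134 and 147 FPKM at ZT0 and 1.64, 1.26 and 1.86 FPKM at ZT12. It was at 138, 148 and 148 FPKM at ZT24 and at 6.54, 6.89 and 8.32 FPKM at ZT36. Again the dawn values overlapped between the days, while ZT36 was higher than ZT12 in all 3 libraries.

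GLYMA03G42260 swung over the widest range. It was at 470, 447 and 484 FPKM at ZT0, fell to 2.32, 1.53 and 3.09 FPKM at ZT12, and returned to 436, 463 and 457 FPKM at ZT24. At ZT36 it reached 15.1, 14.7 and 15.6 FPKM. At dawn it overlapped with the most abundant copy. At ZT12 it overlapped with GLYMA19G45030, the least abundant, and at ZT36 with GLYMA07G05410.

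**Figure D1:**
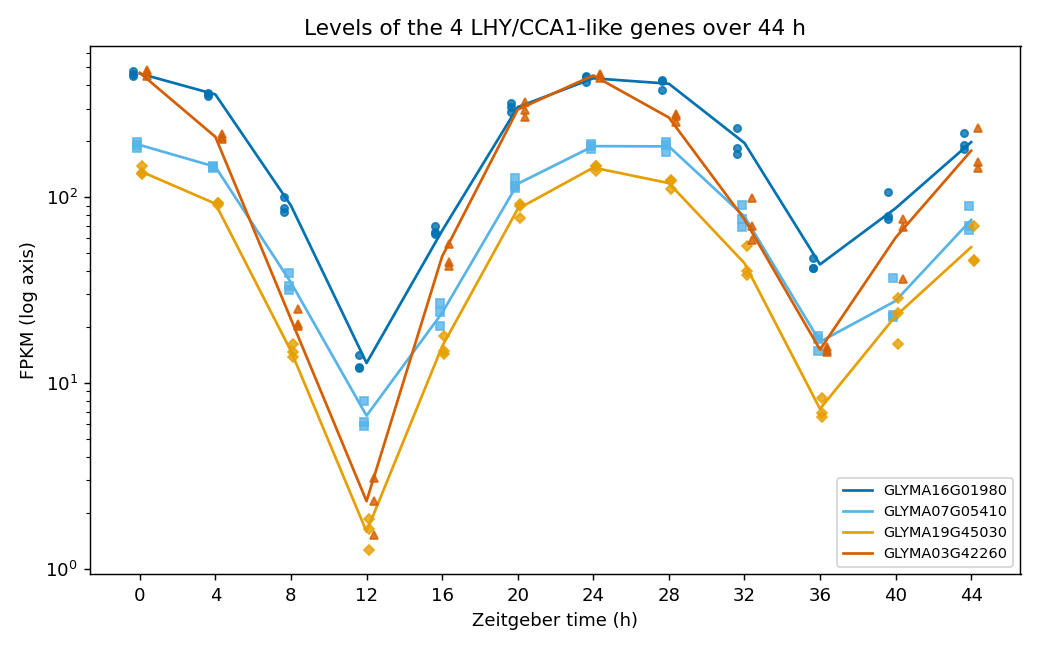
FPKM (log axis) of the 4 LHY/CCA1-like genes against zeitgeber time (h), with 1 point per library, slightly offset by gene, and a line through the mean of 3 libraries. GLYMA03G42260 runs from 467 FPKM at ZT0 to 2.31 FPKM at ZT12 and 15.1 FPKM at ZT36, while GLYMA16G01980 runs from 463 to 12.8 and 43.5 FPKM.

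The rhythm was tested by fitting a 24-h cosine curve and a term for the day to log2(FPKM + 1) in the 27449 genes whose mean reached 1 FPKM. All 4 copies passed, with adjusted p-values from 5.21e-18 (GLYMA07G05410) to 2.01e-15 (GLYMA16G01980; limma, Benjamini-Hochberg). A pass is common in this leaf, since 94.4% of all tested genes passed the same test and 95.1% differed between the 12 time points. A pass together with a swing of 2-fold or more from trough to peak, which all 4 copies also had, was found for 29.7% of genes. These shares depend on scaling. Once each library was rescaled by its median ratio to a geometric mean library, 23646 of 27396 genes passed and 6168 also had such a swing. As deposited these numbers were 25921 and 8142 of 27449. What set the copies apart was the size of the swing. The amplitude, measured on the log2 scale from the curve's mean to its top, was 1.97 ± 0.13 (SE) for GLYMA16G01980 and 2.00 ± 0.11 for GLYMA07G05410. It was 2.30 ± 0.14 for GLYMA19G45030 and 2.77 ± 0.17 for GLYMA03G42260, against a median of 0.36 over all tested genes. Ordered by amplitude, GLYMA03G42260 was number 34 of the 27449 genes, GLYMA19G45030 number 93, GLYMA07G05410 number 180 and GLYMA16G01980 number 186. Their mean levels over the 36 libraries were 175, 61.7, 91.2 and 222 FPKM in that order, against a median of 6.12 FPKM over all tested genes. Adding 1 FPKM before the log2 understates the swing of low genes, so the order by amplitude may depend in part on level. With 0.1 FPKM added instead, 11264 genes passed with a swing of 2-fold or more, against 8142.

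Ratios of the time point means, with no pseudocount, were also largest for GLYMA03G42260 and GLYMA19G45030. From ZT0 to ZT12 the mean fell 202-fold for GLYMA03G42260, 87.3-fold for GLYMA19G45030, 36.1-fold for GLYMA16G01980 and 28.6-fold for GLYMA07G05410. From ZT24 to ZT36 these folds were 29.9, 19.9, 10.0 and 11.3. Every copy thus covered a smaller range on the second day, and GLYMA16G01980 and GLYMA07G05410 changed places at the lower end.

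The copies left their dawn level at different speeds. At ZT4 GLYMA16G01980 still had 77.2% of its ZT0 mean and GLYMA07G05410 had 76.3%, whereas GLYMA19G45030 had 66.7% and GLYMA03G42260 had 45.2%. By ZT8 these values were 19.5%, 18.2%, 10.7% and 4.72%. The return was more alike: at ZT16 the copies had between 10.6% and 15.1% of the ZT24 mean that followed, and at ZT20 between 59.9% and 70.0%. From ZT12 to ZT16 alone GLYMA03G42260 rose 20.7-fold, GLYMA19G45030 9.92-fold, GLYMA16G01980 5.15-fold and GLYMA07G05410 3.58-fold. Most of the rise came before the next subjective dawn in all 4 copies.

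Set side by side within each library, the copies differed in level in all 6 pairs. The mean difference of log2(FPKM + 1) between GLYMA16G01980 and GLYMA07G05410 was 1.30 ± 0.19 (SD over 36 libraries), with the former higher in 36 of 36. Between GLYMA03G42260 and GLYMA19G45030 the former was higher in 36 of 36 libraries, and the mean of GLYMA19G45030 minus GLYMA03G42260 was -1.22 ± 0.48. The difference of GLYMA16G01980 over GLYMA19G45030 was 2.01 ± 0.31, with 36 of 36 libraries in that direction. A sign-flip permutation test with 100000 resamples gave a p of 1e-05 before adjustment, the smallest it can give, for 5 of the 6 pairs (adjusted p = 1.2e-05). For GLYMA07G05410 minus GLYMA03G42260, which changed places over the day, the difference was -0.51 ± 0.84 with GLYMA07G05410 higher in 10 of 36 libraries (adjusted p = 0.00105, two-sided permutation test). With the replicate number as a block the 6 differences kept their size, and an exact sign flip over 3 numbers cannot give a p below 0.25.

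The order of the copies changed with the time of day. GLYMA03G42260 and GLYMA16G01980 had overlapping values at ZT0, ZT20, ZT24, ZT40 and ZT44. At ZT8 the ratio of GLYMA16G01980 to GLYMA03G42260 was 4.10 ± 0.13 (SD, n = 3), and at ZT12 it was 5.91 ± 1.73. On the second day it reached 2.62 ± 0.26 at ZT32 and 2.87 ± 0.13 at ZT36. GLYMA03G42260 overlapped with GLYMA19G45030 at ZT12 and with GLYMA07G05410 at ZT32, ZT36 and ZT40. GLYMA07G05410 and GLYMA19G45030, the neighbours at the low end of the order, overlapped at ZT40 and ZT44. The ratio of GLYMA16G01980 to GLYMA07G05410 moved far less, between 1.94 ± 0.15 at ZT12 and 3.21 ± 0.30 at ZT40, and the values of these copies overlapped at no time point.

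As a share of the summed FPKM of the 4 copies, GLYMA16G01980 made up 36.8% ± 0.29 (SD, n = 3) at ZT0 and 55.04% ± 2.49 at ZT12. GLYMA03G42260 went the other way, from 37.1% ± 0.32 at ZT0 to 9.74% ± 2.16 at ZT12. The share of GLYMA07G05410 rose from 15.2% ± 0.086 to 28.5% ± 1.64 over the same hours, and that of GLYMA19G45030 went from 11.0% ± 0.33 to 6.76% ± 0.73. At ZT36 the shares were 52.7% ± 0.81 for GLYMA16G01980, 20.2% ± 1.25 for GLYMA07G05410, 18.4% ± 0.89 for GLYMA03G42260 and 8.77% ± 0.53 for GLYMA19G45030. The mix at dawn was much the same on both days, with 35.7% ± 0.23 for GLYMA16G01980 and 37.0% ± 0.32 for GLYMA03G42260 at ZT24. The sum itself fell from 1259 ± 46.4 FPKM at ZT0 to 23.4 ± 3.32 at ZT12. It was back at 1221 ± 43.4 FPKM at ZT24 and then fell to 82.5 ± 5.65 by ZT36.

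**Figure D2:**
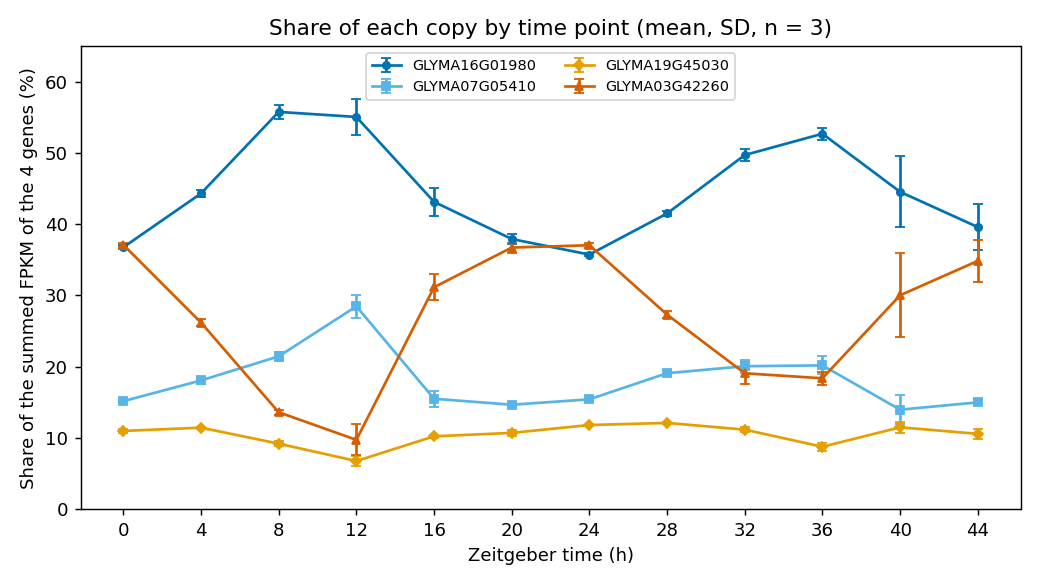
Share of each copy in the summed FPKM of the 4 genes (%) against zeitgeber time (h), as the mean and SD of 3 libraries. GLYMA03G42260 falls from 37.1% at ZT0 to 9.74% at ZT12 and to 18.4% at ZT36, while GLYMA16G01980 rises from 36.8% to 55.04% and 52.7%.

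The courses of the copies were compared after each was centred on its own mean, by swapping the copies within libraries (two-sided permutation test, 100000 resamples, adjusted over 6 pairs). The null is that both copies of a pair share 1 centred course. GLYMA03G42260 had a larger amplitude than each other copy, by 0.79 over GLYMA16G01980, 0.77 over GLYMA07G05410 and 0.47 over GLYMA19G45030, with adjusted p-values of 3e-05, 0.000105 and 6e-05 in this permutation test. GLYMA19G45030 in turn exceeded GLYMA16G01980 by 0.33 (adjusted p = 3e-05, permutation test) and GLYMA07G05410 by 0.30 (adjusted p = 0.00192). The exception was the pair GLYMA16G01980 and GLYMA07G05410. Their amplitudes differed by -0.03 with an SD of 0.0021 over the 3 courses of equal replicate number, and the difference did not pass (adjusted p = 0.633, permutation test). Such a course joins different pools whose shared number did not pair them, here and below.

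The fitted peaks followed each other within about an hour. GLYMA03G42260 came first at ZT23.9 ± 0.24 h (SE), then GLYMA19G45030 at ZT0.51 ± 0.24 h, GLYMA16G01980 at ZT0.81 ± 0.25 h and GLYMA07G05410 at ZT1.02 ± 0.20 h. Differences between the copies were tested in the same libraries. GLYMA07G05410 peaked 1.13 h after GLYMA03G42260, with a range of 1.05 to 1.29 h over the 3 courses (adjusted p = 2e-05, permutation test). GLYMA16G01980 peaked 0.92 h after GLYMA03G42260 (adjusted p = 3e-05, permutation test) and GLYMA19G45030 0.62 h after it (adjusted p = 2e-05). The closest pair was GLYMA16G01980 and GLYMA07G05410, with the former earlier by 0.208 h on average and by 0.128 to 0.252 h in single courses (adjusted p = 0.00118, permutation test). GLYMA19G45030 preceded GLYMA16G01980 by 0.30 h and GLYMA07G05410 by 0.51 h (adjusted p = 0.00375 and 2e-05, permutation test). The single peak times depend on the assumed curve: with a 12-h harmonic added they were ZT0.97 for GLYMA03G42260, ZT2.25 for GLYMA19G45030, ZT2.75 for GLYMA16G01980 and ZT2.22 for GLYMA07G05410. In that fit GLYMA16G01980 came 0.53 h after GLYMA07G05410, the reverse of the order above, and GLYMA07G05410 minus GLYMA19G45030 was -0.03 h. No peak difference of the 6 pairs passed the permutation test with the harmonic (adjusted p from 0.156 to 0.968), so the order of the peaks holds for the single cosine. With samples 4 h apart the means themselves place every peak at ZT0 and ZT24.

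The second day was compared with the first at each matched time. At dawn nothing passed the test: ZT24 minus ZT0 was between -0.08 and 0.06 (log2) in the 4 copies, with SE of 0.11 to 0.20 and adjusted p-values from 0.677 to 0.952 (limma). The libraries of GLYMA16G01980 did not overlap, at 450 to 476 FPKM at ZT0 and 415 to 448 FPKM at ZT24, while those of the other copies did. For this contrast 8.33% of all tested genes were higher and 7.06% lower. At ZT28 against ZT4 the copies were at 1.14 to 1.29 times the first-day mean and their libraries did not overlap. No copy passed after adjustment over all genes (adjusted p from 0.083 for GLYMA07G05410 to 0.279 for GLYMA03G42260, limma). Of all genes 9.19% were called higher and 5.1% lower. The share of all genes whose libraries did not overlap is not given for any matched time, so overlap serves as a description only.

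The large differences lay at ZT32 and ZT36. At ZT32 against ZT8 the means rose 2.17-fold for GLYMA16G01980, 2.27-fold for GLYMA07G05410, 2.97-fold for GLYMA19G45030 and 3.45-fold for GLYMA03G42260. GLYMA03G42260, for example, stood at 20.3, 20.6 and 25.1 FPKM at ZT8 and at 58.9, 70.4 and 98.9 FPKM at ZT32. On the log2(FPKM + 1) scale the differences were 1.10 ± 0.11, 1.16 ± 0.14, 1.49 ± 0.16 and 1.72 ± 0.20 (SE), with adjusted p-values of 2.29e-06 or less (limma). All 4 copies were called higher there, beside 11.1% of all tested genes called higher and 6.6% called lower. Over all genes 3053 were higher and 1811 lower as deposited, and 2389 and 2613 after rescaling, under which the copies kept their calls.

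At ZT36 against ZT12 the means rose 3.39-fold for GLYMA16G01980, 2.50-fold for GLYMA07G05410, 4.58-fold for GLYMA19G45030 and 6.54-fold for GLYMA03G42260. The log2 differences were 1.69 ± 0.11, 1.21 ± 0.14, 1.68 ± 0.16 and 2.31 ± 0.20 (SE), with adjusted p-values between 9.38e-12 and 2.78e-07 (limma). All 4 were called higher, beside 9.94% of genes called higher and 14.1% called lower, while the median tested gene moved by -0.04. The numbers of genes called higher and lower were 2728 and 3869 as deposited and 3513 and 2859 once libraries were rescaled by median ratios, that is by the median over genes of the ratio to a geometric mean library. The differences of the 4 copies after this rescaling were 1.74, 1.25, 1.66 and 2.30.

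Over the next 8 h the order of the days turned. At ZT40 against ZT16 GLYMA16G01980 was higher by 0.38 ± 0.11 (SE, adjusted p = 0.0105, limma) and GLYMA19G45030 by 0.49 ± 0.16 (adjusted p = 0.021), with 14.9% of genes called higher and 11.8% called lower. GLYMA07G05410 (0.18 ± 0.14, adjusted p = 0.37, limma) and GLYMA03G42260 (0.27 ± 0.20, adjusted p = 0.35) did not pass. These values rest on uneven libraries: GLYMA03G42260 was at 76.1, 36.1 and 69.3 FPKM at ZT40, with replicate 2 the low one. GLYMA16G01980 was at 106, 76.0 and 79.1 FPKM, with replicate 1 the high one. Without ZT40 replicate 1 the difference of GLYMA16G01980 was 0.23 (adjusted p = 0.113, limma) and that of GLYMA19G45030 was 0.31 (adjusted p = 0.157). Without ZT40 replicate 2 that of GLYMA03G42260 was 0.60 (adjusted p = 0.0169). Over the fits with 1 library or 1 replicate number left out, the adjusted p of these 3 copies ran from 0.0046 to 0.241 for GLYMA16G01980, from 0.00113 to 0.293 for GLYMA19G45030 and from 0.0169 to 0.997 for GLYMA03G42260. For GLYMA19G45030 the call was also lost without ZT16 replicate 1, ZT16 replicate 2 or ZT40 replicate 3, and without all libraries of replicate 1 or of replicate 3. For GLYMA16G01980 it was also lost without all libraries of replicate 1 or of replicate 2.

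At ZT44 against ZT20 all 4 copies were lower. GLYMA16G01980 was at 287, 322 and 307 FPKM at ZT20 and at 221, 182 and 191 FPKM at ZT44, and GLYMA03G42260 at 270, 325 and 294 FPKM and at 235, 143 and 155 FPKM. The libraries of the 2 days did not overlap in any copy, which is again a description without the share over all genes. The copies fell by 0.63 ± 0.11, 0.65 ± 0.14, 0.70 ± 0.16 and 0.76 ± 0.20 on the log2 scale (SE), in the order GLYMA16G01980, GLYMA07G05410, GLYMA19G45030 and GLYMA03G42260. Their adjusted p-values were 0.000141, 0.000968, 0.00133 and 0.00498 (limma), beside 9.22% of all genes called lower and 24.3% called higher. After median-ratio rescaling 4454 genes were lower and 3886 higher at this time, against 2531 and 6669 as deposited, and the 4 copies fell by 0.75 to 0.89. ZT44 replicates 2 and 3 belong to the 3 libraries that stood apart and were the lower ones in every copy. ZT44 replicate 1 lay toward the opposite end of the fourth principal component. Without those 3 libraries, which leaves replicate 1 alone at ZT44 and assumes that it varies like the other libraries, the call held for GLYMA16G01980 (-0.47, adjusted p = 0.0282, limma). It was lost for GLYMA07G05410 (-0.40, adjusted p = 0.124), GLYMA19G45030 (-0.29, adjusted p = 0.184) and GLYMA03G42260 (-0.33, adjusted p = 0.247). With all libraries of replicate 2 left out, these 3 copies also missed the threshold, with adjusted p-values of 0.0522 to 0.078 (limma).

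**Figure D3:**
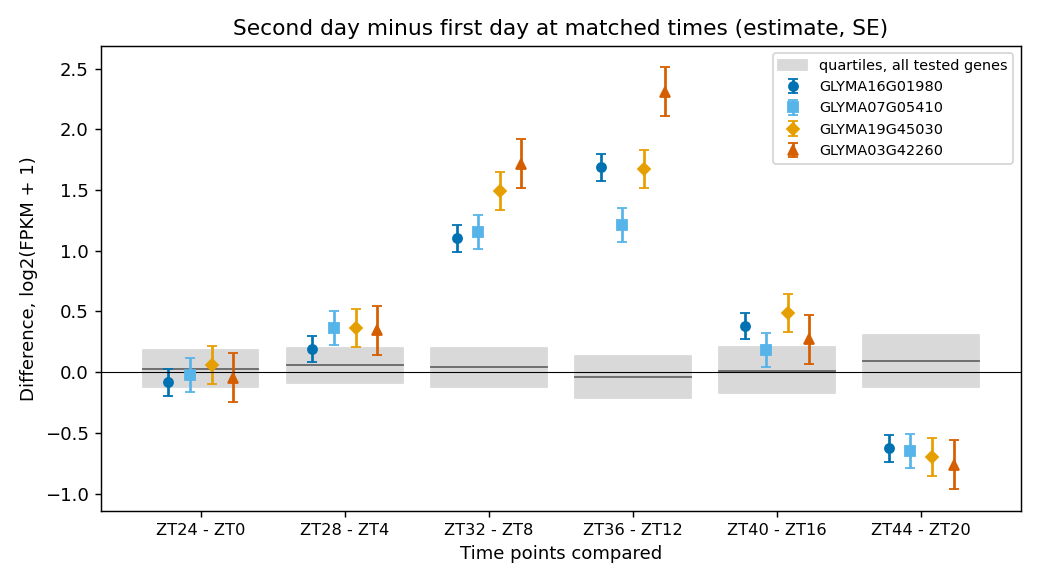
Difference of log2(FPKM + 1) between time points 24 h apart, second minus first, as the limma estimate with its SE for each copy. Grey boxes are the quartiles and grey lines the median of all 27449 tested genes. The copies lie between 1.10 and 2.31 at ZT32 minus ZT8 and ZT36 minus ZT12 and between -0.76 and -0.63 at ZT44 minus ZT20.

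**Figure D4:**
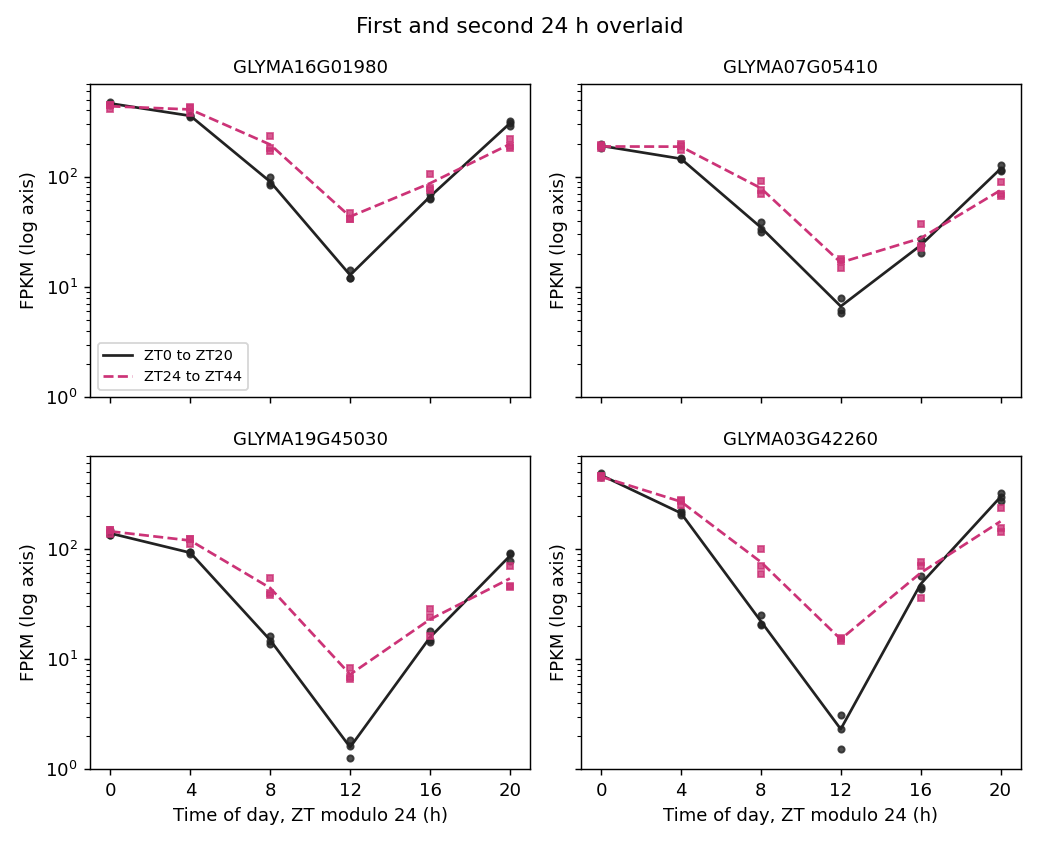
FPKM (log axis, 1 panel per gene) against the time of day (h), with the first 24 h as black circles and a solid line and the second 24 h as pink squares and a dashed line. Points are single libraries and lines join the means of 3. The curves meet at dawn, the second lies above the first at ZT8 and ZT12, and they have crossed at ZT20.

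Averaged over the 6 matched times, all 4 copies were higher on the second day, beside 29.8% of genes called higher and 18.8% called lower. The difference was 0.44 ± 0.14 (SE) for GLYMA16G01980, 0.37 ± 0.13 for GLYMA07G05410, 0.56 ± 0.15 for GLYMA19G45030 and 0.64 ± 0.20 for GLYMA03G42260, with adjusted p-values of 0.00858, 0.0135, 0.00274 and 0.00776 (limma). Over all genes the split was 8189 higher and 5164 lower as deposited and 6812 and 6492 after median-ratio rescaling. On the linear scale the average level of GLYMA03G42260 was 174 FPKM on the first day and 175 FPKM on the second, and that of GLYMA16G01980 was 216 and 228 FPKM. For GLYMA07G05410 it was 86.6 and 95.7 FPKM and for GLYMA19G45030 58.2 and 65.2 FPKM. Without the 3 libraries that stood apart the log2 differences were 0.57, 0.52, 0.76 and 0.88 in the order above. Without replicate 1 no copy passed this test, with adjusted p-values from 0.0653 to 0.134 (limma), and without replicate 2 GLYMA07G05410 did not (adjusted p = 0.0567).

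The change from the first to the second day differed between copies in 4 of 6 pairs. GLYMA19G45030 gained 0.19 more than GLYMA07G05410 (adjusted p = 0.003, permutation test shuffling the day within each time of day, two-sided, 100000 resamples). GLYMA03G42260 gained 0.27 more than GLYMA07G05410 (adjusted p = 0.0238, permutation test) and 0.20 more than GLYMA16G01980 (adjusted p = 0.0272), and GLYMA19G45030 gained 0.12 more than GLYMA16G01980 (adjusted p = 0.0238). Within the pairs GLYMA16G01980 with GLYMA07G05410 and GLYMA19G45030 with GLYMA03G42260 the differences were 0.07 and -0.07 and did not pass (adjusted p = 0.18 and 0.234, permutation test). Without replicate 1 none of the 4 passed, with adjusted p-values from 0.145 to 0.221 in this permutation test, and without replicate 3 only GLYMA19G45030 against GLYMA07G05410 did.

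Fitted to each day alone, the rhythm had a smaller amplitude on the second day in all 4 copies. It went from 2.39 to 1.61 for GLYMA16G01980, from 2.28 to 1.79 for GLYMA07G05410, from 2.74 to 1.92 for GLYMA19G45030 and from 3.39 to 2.19 for GLYMA03G42260. The changes were -0.79 ± 0.21, -0.50 ± 0.16, -0.83 ± 0.23 and -1.20 ± 0.27 (SE). The test of the day by rhythm interaction gave adjusted p-values of 0.00358, 0.0011, 0.00434 and 0.00219 in the same order (limma). Of all tested genes 15.4% passed this test, and 11.4% passed it with a smaller amplitude on the second day. Without the 3 libraries that stood apart the changes were -0.77, -0.50, -0.81 and -1.17, with adjusted p-values from 0.00626 to 0.0222 (limma). The ratio of the amplitudes was 0.67, 0.78, 0.70 and 0.65. Among the 8142 genes whose swing was 2-fold or more, its median was 0.89 with a lower quartile of 0.78. In single courses the ratio ranged from 0.63 to 0.66 for GLYMA03G42260 and from 0.74 to 0.84 for GLYMA07G05410. The interaction test covers both amplitude and timing. Without replicate 2 no copy passed it, with adjusted p-values from 0.0711 to 0.102 (limma). Without replicate 1 it was lost for GLYMA16G01980 alone and without replicate 3 for GLYMA16G01980 and GLYMA19G45030, while the amplitude changes lay between -1.21 and -0.43 in these 3 fits.

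The fitted peak came later on the second day, by 1.25 ± 0.42 h (SE) for GLYMA16G01980, 1.40 ± 0.30 h for GLYMA07G05410, 1.21 ± 0.39 h for GLYMA19G45030 and 1.01 ± 0.39 h for GLYMA03G42260. For the same 8142 genes the median delay was 0.79 h, with quartiles of 0.17 and 1.30 h, so that GLYMA07G05410 lay above the upper quartile and the other 3 copies inside it. The courses did not agree closely: the course of replicate 1 had the shortest delay in every copy, 0.40 h for GLYMA03G42260 and 0.90 h for GLYMA07G05410, against 1.22 to 1.66 h in the other courses. Without the 3 libraries that stood apart the delays were 1.22, 1.34, 0.99 and 0.74 h in the order above. They also depend on the assumed period, and with a period longer by 0.5 h they were 0.79, 0.95, 0.75 and 0.53 h. The best-fitting period over both days was 24.6 ± 0.36 h (SD over 3 courses) for GLYMA16G01980, 24.9 ± 0.49 h for GLYMA07G05410, 24.7 ± 0.55 h for GLYMA19G45030 and 24.6 ± 0.49 h for GLYMA03G42260. It exceeded 24 h in 11 of 12 courses, which share libraries between copies, and equalled it in replicate 1 of GLYMA03G42260. No best-fitting period of other genes is given here, so this count does not set the copies apart. Without the 3 libraries it was 25.1 ± 1.17, 25.3 ± 1.002, 24.9 ± 1.27 and 24.4 ± 0.67 h.

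**Figure D5:**
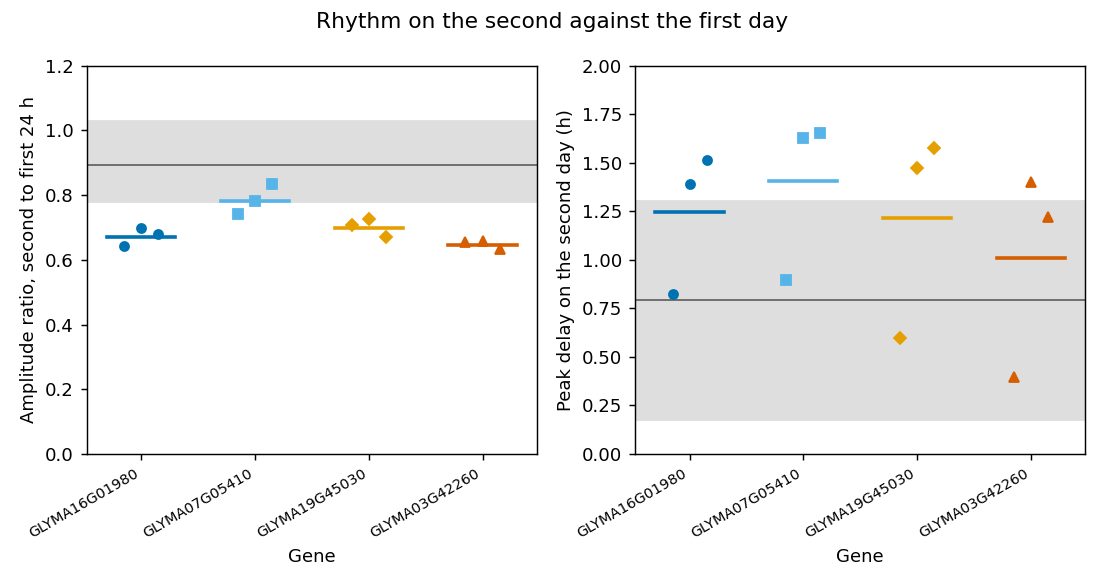
Ratio of the fitted amplitude of the second to the first 24 h (left) and delay of the fitted peak (h, right) for each copy. Points are the 3 courses of equal replicate number from left to right, coloured bars the fit to all 36 libraries, the grey band the quartiles and the grey line the median of the 8142 genes swinging 2-fold or more. The ratios of the 4 copies lie between 0.65 and 0.78, against a median of 0.89.

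Crossing times, which assume no cosine, were later on the falling side of the second day. They were read by interpolation of log2 FPKM between samples as the time at which a copy passed 25% of its dawn mean, a measure chosen after the values were seen. GLYMA16G01980 fell through this level at 7.28 ± 0.22 h after ZT0 on the first day (SD, n = 3) and at 9.52 ± 0.34 h after ZT24 on the second, a delay of 2.24 ± 0.12 h. The delays were 2.19 ± 0.20 h for GLYMA07G05410, 2.26 ± 0.34 h for GLYMA19G45030 and 1.74 ± 0.55 h for GLYMA03G42260. Every one of the 12 courses, which share libraries between copies, was later on the second day. GLYMA03G42260 was the first to fall on both days, at 5.05 ± 0.036 h and 6.79 ± 0.57 h. The second minimum was shallower in every copy, which can by itself move this crossing later. The measure therefore does not separate a later timing from a smaller amplitude.

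On the rising side no such shift could be told from the spread. GLYMA16G01980 rose through 25% of its ZT24 mean at 17.3 ± 0.099 h of the first day and at 17.1 ± 0.83 h of the second, a difference of -0.23 ± 0.90 h (SD, n = 3). The differences were 0.42 ± 0.93 h for GLYMA07G05410, 0.26 ± 1.202 h for GLYMA19G45030 and 0.49 ± 1.10 h for GLYMA03G42260. In each copy replicate 1 was earlier on the second day, with differences of -1.27 to -0.65 h, and replicates 2 and 3 were later. The later values rest on the 3 libraries that stood apart, without which replicate 1 is the only course left on this side. A step of 4 h does not resolve the depth of a narrow minimum, and the level between ZT36 and ZT40 was not measured.

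The coefficient of variation of FPKM was between 1.33% and 3.45% at ZT4 over the 4 copies and between 19.3% and 35.3% at ZT40. The copies moved together from library to library: the deviations of log2(FPKM + 1) from the time point mean had a Pearson r over 36 libraries of 0.94 for GLYMA19G45030 with GLYMA03G42260 and 0.92 for GLYMA16G01980 with GLYMA07G05410, and of 0.73 to 0.87 for the other 4 pairs. These values come from shared libraries and are given as a description.

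In the shape of the mean course over 12 time points, the copies were among each other's nearest genes. Of 9407 genes averaging 10 FPKM or more, GLYMA19G45030 was the most alike to GLYMA16G01980, with a Pearson r of 0.995, and GLYMA07G05410 was second with 0.993. GLYMA03G42260 was number 52 in that list with 0.97. GLYMA19G45030 ranked 7th for GLYMA03G42260 with 0.987, ahead of GLYMA16G01980 at number 39 and GLYMA07G05410 at number 98. Among other genes, the highest mean r over the 4 copies belonged to GLYMA08G23580 (0.99) and GLYMA10G05560 (0.985), and the lowest to GLYMA16G00590 (-0.97) and GLYMA20G24390 (-0.97). Their functions are not annotated in the sources used here. GLYMA10G05560 also had a deep minimum, at 67.1 ± 7.10 FPKM at ZT0, 0.847 ± 0.33 at ZT12 and 3.88 ± 0.33 at ZT36 (SD, n = 3). GLYMA20G24390 mirrored it, with 7.09 ± 0.58 FPKM at ZT0, 49.2 ± 2.49 at ZT12 and 42.1 ± 3.74 at ZT36. A mean r of at least 0.9 with the copies was reached by 298 genes and one of -0.9 or below by 322. The median of this mean r over the 9407 genes was -0.50, so a negative value was common. The points of these correlations share libraries and a common daily change of the median gene, which lay at 2.55 (log2) at ZT0 and 2.99 at ZT12.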

How the data were processed

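RNA-seq of 36 libraries was analysed from 1 table of FPKM values that the authors deposited, with 36 columns whose names matched the sample titles. Per the submitters' processing notes, the tools included TopHat2 2.1.0 and HTSeq 0.6.0, with no role stated. The sources used here do not give the FPKM tool, genome build, annotation or treatment of multiply matching reads. FPKM is a share of the library, so a few abundant transcripts can move all others, and it is not a count, so no count model was used. Very low values lay on whole multiples of a step in 88.9% of cases (tolerance 0.06 of a step), which gave relative depth only.

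The 4 genes were taken by identifier. The members, lists and tests were chosen with earlier results of these data known. Values were transformed to log2(FPKM + 1), which understates changes of low genes, for 27449 genes averaging 1 FPKM or more. Time points, rhythm, day level, the day by rhythm interaction and matched times were fitted in limma 3.58.1 (R 4.3.3) with a variance trend and Benjamini-Hochberg adjustment over all genes at 0.05, after tests on simulated data. Copies were compared by permutation within libraries (Python 3.11.15). The most alike and most opposite genes were the 2 non-members each with the highest and lowest mean r. The planned lists of clock genes and leaf markers could not be resolved. Alternatives were pseudocount 0.1, no filter, median-ratio rescaling, quantile normalization, a replicate block, a 12-h harmonic, a slightly longer period, and leaving out libraries or replicates. Replicate numbers did not pair the libraries: deviations of same-numbered libraries had a mean correlation of 0.011, above 0.1 in 42 of 198 pairs. For libraries of different number the mean was -0.0062, with 68 of 396 pairs above 0.1. Courses of equal replicate number thus join different pools, and other joinings would give other SDs and ranges.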

Additional observations from a re-analysis of the deposited data

Results flagged for a closer look

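The rhythm differed between the days in all 4 copies by the interaction of day with the 24-h curve, and the copies are listed here because the difference between the days was tested. The adjusted p-values (limma) were 0.00358 for GLYMA16G01980, 0.0011 for GLYMA07G05410, 0.00434 for GLYMA19G45030 and 0.00219 for GLYMA03G42260. Of all tested genes 15.4% passed the same test, so a pass alone does not set the copies apart. The amplitude ratios of 0.67, 0.78, 0.70 and 0.65 and the delays of 1.25, 1.40, 1.21 and 1.01 h are the sizes behind these calls.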

How the results depend on the processing

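The 24-h amplitude passed in all 188 fits, and the amplitude differences between copies kept their calls in all 48. Its size depended on scaling. For GLYMA16G01980, GLYMA07G05410, GLYMA19G45030 and GLYMA03G42260 it was 1.97, 2.00, 2.30 and 2.77 as deposited. With median-ratio rescaling it was 2.24, 2.27, 2.54 and 2.99, and with quantile normalization 2.00, 2.11, 2.40 and 2.80. Of 48 peak differences 42 kept their call. Those that did not came from the 12-h harmonic, applied to them after seeing the data, where 2 reversed, at 0.53 h for GLYMA16G01980 minus GLYMA07G05410 and -0.03 h for GLYMA07G05410 minus GLYMA19G45030. The other 4 no longer passed, at 0.5 and 1.78 h for GLYMA16G01980 minus GLYMA19G45030 and minus GLYMA03G42260, 1.25 h for GLYMA07G05410 minus GLYMA03G42260 and 1.28 h for GLYMA19G45030 minus GLYMA03G42260. With the replicate block no call of a limma fit changed; an amplitude change of -0.79 for GLYMA16G01980 had an adjusted p of 0.00528 under the block. The level differences between copies under the block were 1.30, 2.01, 0.79, 0.72, -0.51 and -1.22, where the exact sign flip over 3 numbers cannot pass. Peak times moved by more than their SD over courses. They were 1.02, 0.72 and 0.12 h for GLYMA16G01980, GLYMA19G45030 and GLYMA03G42260 with median-ratio rescaling. With quantile normalization they were 0.97, 1.24 and 0.73 h for GLYMA16G01980, GLYMA07G05410 and GLYMA19G45030. With the 12-h harmonic they were 2.75, 2.22, 2.25 and 0.97 h for the 4 copies as ordered in the report. With the longer period they were 0.35, 0.55, 0.048 and 23.4 h for the 4 copies, and the delays, tried after seeing the data, were 0.79, 0.95, 0.75 and 0.53 h, with all 4 interactions still passing. Without the 3 libraries apart they were 0.32 h for GLYMA19G45030 and 23.7 h for GLYMA03G42260.

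Without the 3 libraries, ZT44 minus ZT20 no longer passed for GLYMA07G05410 (-0.40), GLYMA19G45030 (-0.29) and GLYMA03G42260 (-0.33), while ZT28 minus ZT4 passed for GLYMA19G45030 (0.36) and ZT40 minus ZT16 for GLYMA03G42260 (0.60). Leaving out 1 library or 1 replicate number gave the following ranges where a call changed. Second-day level: 0.39 to 0.49, 0.32 to 0.43, 0.51 to 0.62 and 0.56 to 0.71 for GLYMA16G01980, GLYMA07G05410, GLYMA19G45030 and GLYMA03G42260, lost without replicate 1 for all 4 and without replicate 2 for GLYMA07G05410. Amplitude change: -0.86 to -0.67, -0.56 to -0.41, -0.92 to -0.69 and -1.29 to -1.01. ZT28 minus ZT4 of GLYMA07G05410: 0.33 to 0.42. ZT40 minus ZT16: 0.22 to 0.48 for GLYMA16G01980, 0.28 to 0.71 for GLYMA19G45030 and -0.0029 to 0.60 for GLYMA03G42260. ZT44 minus ZT20: -0.81 to -0.51, -0.97 to -0.55 and -1.05 to -0.56 for GLYMA07G05410, GLYMA19G45030 and GLYMA03G42260, lost without replicate 2. Second-day change between copies: -0.14 to -0.10 for GLYMA16G01980 minus GLYMA19G45030, -0.23 to -0.16 for GLYMA16G01980 minus GLYMA03G42260, -0.23 to -0.15 for GLYMA07G05410 minus GLYMA19G45030 and -0.32 to -0.23 for GLYMA07G05410 minus GLYMA03G42260.

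Of all genes, 4214 passed the interaction with 36 libraries and 752, 515 and 1454 without replicates 1, 2 and 3. At ZT44 minus ZT20 4404 were higher and 1188 lower without the 3 libraries. At ZT28 minus ZT4 1399 genes were lower as deposited and 2235 with median-ratio rescaling. The cause of these changes was not tested, and the fits with libraries left out also rest on fewer libraries. Absolute depth is unknown, so the counting error of the low values at ZT12 is not given.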
